A study of Mus musculus with 3 samples.

Results

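The TNF superfamily was followed in the draining lymph node as the set of loci in the deposited gene table whose symbol begins with Tnfsf or Tnfrsf and a number, or is Tnf, Lta, Ltb, Ltbr, Cd40, Cd70, Cd27 or Fasl. This rule found 39 of 46951 loci. They comprised 15 ligand loci, 23 receptor loci and Tnfsf13os, an antisense RNA of the Tnfsf13 gene. The RNA was taken from inguinal nodes of male mice of the C57BL/6j strain. There were 3 groups, 20(OH)D3, 25(OH)D3 and the ethanol vehicle, each represented by 1 library. All 3 groups, controls included, had been painted with the contact sensitizer dinitrofluorobenzene (DNFB) on the abdomen 3 days before the first intraperitoneal injection, so no node was unsensitized. The daily dose of either vitamin D3 derivative was 4 µg/kg. By the sample labels there were 4 daily injections and nodes were taken 24 hours after the last, while the series text speaks of 1 week. The compounds are monohydroxylated forms of vitamin D3 with the hydroxyl group on different side-chain carbons. Neither the age of the mice nor the number of mice behind a library is given in the sources used here.

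Ligands of this family are mostly trimeric membrane proteins that can be shed, and their receptors signal through TRAF adaptors or death domains to NF-kB, kinase cascades or caspases. In lymph nodes, lymphotoxin made by lymphocytes keeps stromal cells producing homing chemokines, BAFF keeps B cells alive, and a group of T cell receptors with partner ligands on antigen-presenting cells tunes clonal expansion. TNF itself is an early inflammatory product of macrophages, mast cells and T cells in sensitized tissue. Tnfsf11, which encodes the osteoclast factor RANKL, is a known target of the vitamin D receptor in bone-forming cells of the mouse.

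Reads recovered from the deposited normalized counts totalled 7522550, 7991748 and 8226431 in the 20(OH)D3, 25(OH)D3 and vehicle libraries. The family took 14386, 13777 and 13949 of these reads. With 1 library per group there is no replicate check and no test. Each ratio below is a ratio of normalized counts with an exact 95% interval (Clopper-Pearson, conditional on the summed reads of both libraries) that covers counting error only, and it describes these libraries. Levels of different genes are compared in FPKM, which is scaled by transcript length. In whole tissue, fewer cells of a type cannot be told apart from less RNA per cell. The libraries carried the markers of a lymph node. All 8 B cell and all 10 T cell markers were detected in every library, with summed FPKM of 1886, 2200 and 2022 for B cells and 979, 1343 and 1252 for T cells in the 20(OH)D3, 25(OH)D3 and vehicle libraries. Fat markers were unequal, with 8758, 3820 and 1977 FPKM summed over 10 adipocyte genes. Macrophage markers stood at 1053, 629 and 618 FPKM over 9 genes. By normalized counts the summed macrophage markers had a ratio of 25(OH)D3 to vehicle of 0.897, so that order depends on the unit.

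Ltb, Tnf and Lta lie side by side on chromosome 17 within the major histocompatibility complex, and they had 3 different patterns over the libraries. In GENCODE M21 on GRCm38, Ltb occupies 35194439 to 35196320 on the plus strand, and Tnf (35199381 to 35202007) and Lta (35203165 to 35205351) are on the minus strand. Gaps of 3060 bases separate Ltb from Tnf and 1157 bases separate Tnf from Lta. Their upstream sequences are shown because neighbours with such different profiles share this short interval. They come from RefSeq (GRCm38.p6), run 5′ to 3′ on the strand of the gene, and end at the base before the outermost annotated start, at chr17:35194257-35194438 for Ltb, chr17:35202008-35202257 for Tnf and chr17:35205352-35205601 for Lta. Capitals mark a match to the kappaB consensus, the site bound by NF-kB.
Ltb: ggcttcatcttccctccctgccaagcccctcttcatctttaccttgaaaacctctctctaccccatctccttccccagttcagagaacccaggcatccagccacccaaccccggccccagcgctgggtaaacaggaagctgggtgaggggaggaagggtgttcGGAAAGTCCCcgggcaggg
Tnf: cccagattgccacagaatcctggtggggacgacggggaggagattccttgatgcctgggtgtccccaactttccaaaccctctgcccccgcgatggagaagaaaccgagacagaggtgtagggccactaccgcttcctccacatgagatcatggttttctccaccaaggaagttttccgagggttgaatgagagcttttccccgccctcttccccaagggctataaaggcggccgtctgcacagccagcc
Lta: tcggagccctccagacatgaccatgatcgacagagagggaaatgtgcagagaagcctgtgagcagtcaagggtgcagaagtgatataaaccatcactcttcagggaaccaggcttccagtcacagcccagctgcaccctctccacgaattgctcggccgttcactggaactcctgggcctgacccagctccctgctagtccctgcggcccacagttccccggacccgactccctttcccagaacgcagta
The kappaB consensus was searched on both strands, and 3.90% of 32851 RefSeq promoters held a match in the 250 bases before their start. Among 35 promoter entries of 31 family genes the match occurred in 3, those of Ltb, Tnfrsf8 and Tnfrsf9. The direct repeat consensus of the vitamin D receptor occurred in 0 of the 35 entries and in 0.0396% of all promoters. These matches describe letters in this window only.

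The lymphotoxin beta gene Ltb, whose product anchors the lymphotoxin heterotrimer on the lymphocyte surface, had by far the highest level of the family. Its level was 596 FPKM with 20(OH)D3, 353 FPKM with 25(OH)D3 and 355 FPKM with vehicle. The 20(OH)D3 library stood apart, and the other libraries lay together. Read numbers were 4926 with 20(OH)D3, 3073 with 25(OH)D3 and 3294 with vehicle, and the ratio to vehicle was 1.67 (interval 1.60 to 1.75) for 20(OH)D3 and 1.00 (0.953 to 1.05) for 25(OH)D3. This gene alone made up 34.2% of family reads with 20(OH)D3, 22.3% with 25(OH)D3 and 23.6% with vehicle. Summed over the whole family, the 20(OH)D3 library was 1.15 times the vehicle library (1.13 to 1.18), and without Ltb it was 0.993 times (0.966 to 1.02). In the same comparison 9 of 10 T cell and 7 of 8 B cell markers were below vehicle. Above it were 6 of 6 natural killer cell, 9 of 9 macrophage and 10 of 10 adipocyte markers, against 47.9% of all loci. Among the natural killer cell markers, the intervals of Ncr1, Klrk1 and Prf1 held 1. So did those of the macrophage markers Cd68, Csf1r, Cd163 and Siglec1. The part of any of these cell types in the Ltb values was not tested.

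Tnf was higher in the libraries of both compounds. It had 184 reads with 20(OH)D3, 206 reads with 25(OH)D3 and 134 reads with vehicle, which is 15.2, 16.4 and 10.3 FPKM. The ratio to vehicle was 1.54 (1.22 to 1.93) for 20(OH)D3 and 1.65 (1.32 to 2.07) for 25(OH)D3. Between the compounds the ratio was 0.931, with an interval of 0.759 to 1.14 that held 1. Lta, which encodes the soluble lymphotoxin alpha chain, had 252, 352 and 315 reads in the 20(OH)D3, 25(OH)D3 and vehicle libraries. Its ratio to vehicle was 0.895 (0.755 to 1.06) for 20(OH)D3 and 1.20 (1.03 to 1.40) for 25(OH)D3. The level of Ltb was thus 23.5 times that of Lta with 20(OH)D3, 10.4 times with 25(OH)D3 and 12.6 times with vehicle, in FPKM. Tnfsf14, the ligand LIGHT that shares the lymphotoxin beta receptor, lay at 3.95, 4.49 and 3.92 FPKM in the same order of libraries, and every one of its intervals held 1. The summed neutrophil markers were unequal in the same direction as Tnf, at 52.4, 106 and 18.7 FPKM over 7 genes. Of 6 past the count filter, 4 were above vehicle with 20(OH)D3 and 5 with 25(OH)D3, against 47.9% and 51.7% of all loci. Ngp (0.699) and Camp (0.746) were below vehicle with 20(OH)D3, on few reads. Csf3r had 142, 141 and 153 reads, and its intervals held 1. Ly6g, a defining neutrophil marker, was at 0 reads in the 20(OH)D3 and vehicle libraries, and the part of these cells in the Tnf values was not tested.

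**Figure D1:**
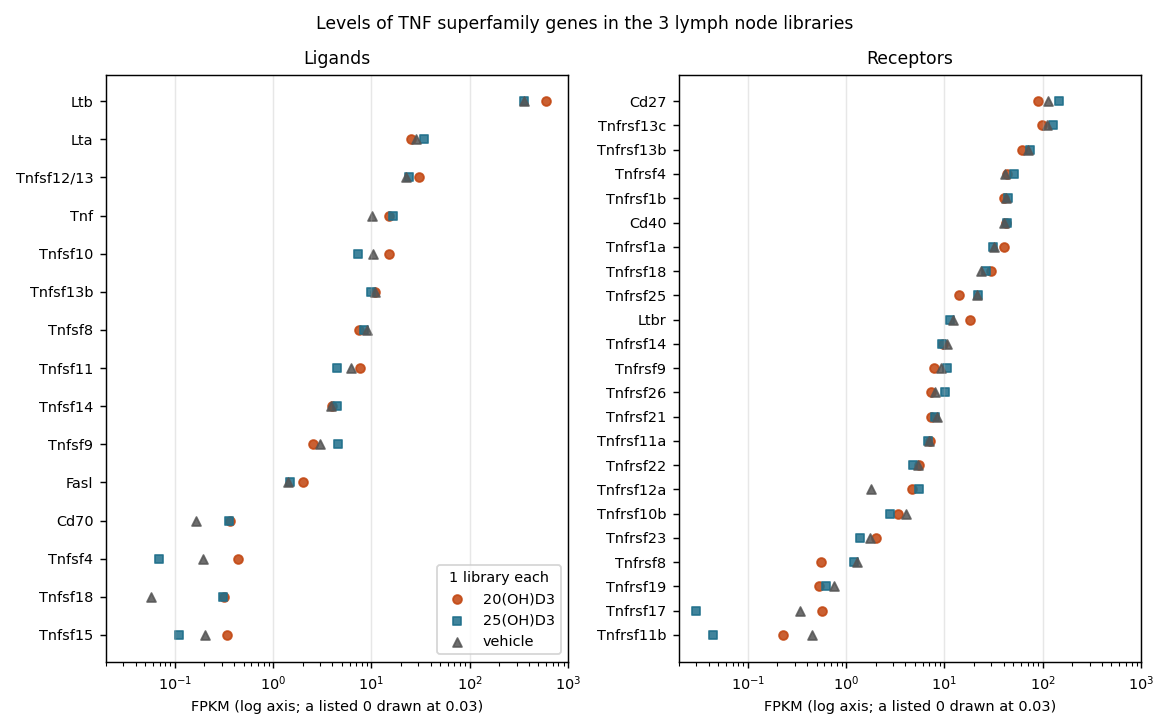
FPKM (log axis) of the 15 ligand and 23 receptor loci, sorted by mean level, with a point for each library (20(OH)D3 circles, 25(OH)D3 squares, vehicle triangles). Ltb leads the ligands at 596, 353 and 355 FPKM, and Cd27, Tnfrsf13c and Tnfrsf13b lead the receptors.

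The receptors of these ligands split. Ltbr, the lymphotoxin beta receptor of stromal and myeloid cells, had 281 reads with 20(OH)D3, 188 with 25(OH)D3 and 220 with vehicle. The 20(OH)D3 library was 1.43 times vehicle (1.19 to 1.71) and 1.56 times the 25(OH)D3 library (1.29 to 1.88). Tnfrsf1a, the widely expressed TNF receptor with a death domain, followed the same order, at 40.0, 31.4 and 31.6 FPKM, with a ratio of 20(OH)D3 to vehicle of 1.37 (1.22 to 1.54). Tnfrsf1b, the TNF receptor of lymphoid and myeloid cells, lay at 40.1, 44.3 and 42.2 FPKM, and its ratio of 20(OH)D3 to vehicle was 0.951 (0.880 to 1.03). The levels of the pair were therefore nearly equal with 20(OH)D3 (Tnfrsf1b to Tnfrsf1a 1.00 in FPKM), against 1.41 with 25(OH)D3 and 1.34 with vehicle. Tnfrsf14, the receptor HVEM, had 59, 48 and 70 reads, and its intervals held 1 in all 3 comparisons. Relative to the rest of the library, macrophage markers stood above vehicle with 20(OH)D3 in 9 of 9 genes and adipocyte markers in 10 of 10. Of all loci, 47.9% were above vehicle. The intervals of Cd68, Csf1r, Cd163 and Siglec1 among the macrophage markers held 1. The part of both cell types in the values of Ltbr and Tnfrsf1a was not tested.

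The BAFF and APRIL system supports B cell and plasma cell survival. Tnfsf13b, encoding BAFF, stood at 10.8, 9.84 and 10.8 FPKM in the 20(OH)D3, 25(OH)D3 and vehicle libraries, with ratios to vehicle of 0.935 (0.743 to 1.17) and 0.915 (0.728 to 1.15) for the compounds. Its main receptor on B cells, Tnfrsf13c, stood at 99.0, 126 and 110 FPKM, and the receptor TACI, Tnfrsf13b, at 62.0, 74.3 and 70.7 FPKM. Both were lowest with 20(OH)D3. The ratio of 20(OH)D3 to vehicle was 0.900 (0.839 to 0.965) for Tnfrsf13c and 0.900 (0.828 to 0.979) for Tnfrsf13b, and that of 25(OH)D3 to vehicle was 1.14 (1.06 to 1.21) and 1.04 (0.959 to 1.12). Between the compounds the ratio was 0.793 (0.739 to 0.850) for Tnfrsf13c and 0.867 (0.797 to 0.944) for Tnfrsf13b. The summed B cell markers had a ratio to vehicle of 0.904 for 20(OH)D3 and 1.03 for 25(OH)D3, and their part in the receptor values was not tested. Single B cell markers ranged from 0.867 (Pax5) to 1.13 (Cd79a) for 25(OH)D3 over vehicle. Tnfrsf17, the receptor BCMA of plasma cells, had 3 reads with 20(OH)D3, 0 with 25(OH)D3 and 2 with vehicle, and no difference was detectable at this depth.

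The APRIL gene Tnfsf13 could not be read alone. The authors' table merges it with Tnfsf12, which encodes TWEAK, and with their readthrough Tnfsfm13 on chromosome 11. The merged locus had 349, 280 and 283 reads with 20(OH)D3, 25(OH)D3 and vehicle. The 20(OH)D3 library was 1.38 times vehicle (1.18 to 1.62), and the 25(OH)D3 library was 1.06 times vehicle (0.897 to 1.26). Tnfsf13os lies on the opposite strand and overlaps exons of Tnfsf13, and it had 3, 7 and 10 reads. Whether counting used strand is not given, so reads of the overlap cannot be assigned with certainty.

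Tnfrsf12a, the TWEAK receptor Fn14 of injured and proliferating tissue, had the highest ratio to vehicle of the measured members for each compound, although on few reads. It had 30 reads with 20(OH)D3, 37 with 25(OH)D3 and 13 with vehicle, or 4.66, 5.51 and 1.79 FPKM. The vehicle library was low, and those of the compounds did not differ beyond counting error. The ratio to vehicle was 2.58 (1.31 to 5.39) for 20(OH)D3 and 3.05 (1.59 to 6.26) for 25(OH)D3. The summed brown or beige adipocyte markers were also higher in the libraries of both compounds, at 553, 553 and 118 FPKM over 6 genes. Most of that sum was Cox8b, at 373, 327 and 66.1 FPKM. With 20(OH)D3, 5 of the 6 were above vehicle, against 47.9% of all loci. Dio2 was below it at 0.906, and the intervals of Dio2 and Elovl3 held 1. With 25(OH)D3 all 6 were above, against 51.7% of all loci. The part of these cells in the Tnfrsf12a values was not tested.

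**Figure D2:**
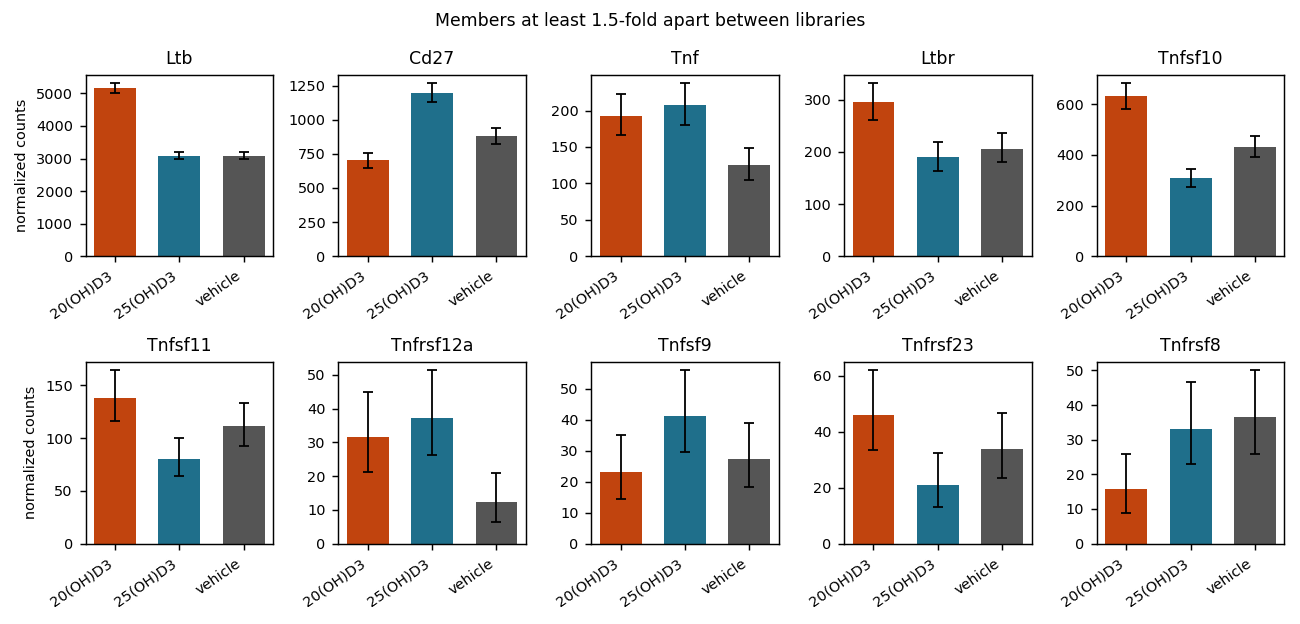
Normalized counts of the 10 members that averaged at least 20 counts and were at least 1.5-fold apart between 2 libraries with a ratio interval that leaves out 1, with a bar per library from left to right for 20(OH)D3, 25(OH)D3 and vehicle, with exact 95% Poisson intervals as error bars. Ltb and Ltbr are high in the 20(OH)D3 bar alone, and Tnf and Tnfrsf12a are low in the vehicle bar.

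Of the 7 costimulatory receptors of T and B cells, 1 had a ratio of 20(OH)D3 to 25(OH)D3 above 1, against 48.2% of all loci, and 6 were below 1, among them Cd40 at 0.974 with an interval that held 1. Cd27, a receptor of naive and memory T cells, had 669 reads with 20(OH)D3, 1190 with 25(OH)D3 and 938 with vehicle, and the libraries of the compounds lay on either side of vehicle. The 20(OH)D3 library was 0.798 times vehicle (0.722 to 0.882), the 25(OH)D3 library was 1.36 times vehicle (1.25 to 1.48), and the ratio between the compounds was 0.586 (0.532 to 0.645). The locus of Cd27 also carries the microRNA gene Mir8113, which lies within it on the same strand. Tnfrsf25, a death-domain receptor that costimulates T cells, had 153, 228 and 183 reads, with a ratio between the compounds of 0.700 (0.566 to 0.863). Its FPKM of 13.9, 22.1 and 21.3 gave a ratio of 20(OH)D3 to vehicle of 0.656, against 0.935 (0.750 to 1.17) by counts, so the size of that difference depends on the unit.

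Tnfrsf9, an activation-induced receptor of T cells, had 123, 174 and 162 reads, and Tnfrsf4, another receptor of activated T cells, had 323, 412 and 354 reads. Their ratios between the compounds were 0.737 (0.580 to 0.934) and 0.818 (0.705 to 0.948). Tnfrsf18, the receptor GITR of regulatory and activated T cells, was the exception, with 242, 223 and 220 reads and a ratio between the compounds of 1.13 (0.940 to 1.36). It overlaps exons of Gm16008 on the opposite strand. Cd40, which receives T cell help on B cells and dendritic cells, had 426, 456 and 528 reads. For Cd40 the counts put vehicle highest (ratio of 20(OH)D3 to vehicle 0.903, interval 0.793 to 1.03), while FPKM of 42.4, 43.7 and 40.3 put it lowest, so no order is given. Tnfrsf8, encoding CD30 of activated lymphocytes, had 15 reads with 20(OH)D3, 33 with 25(OH)D3 and 39 with vehicle. The 20(OH)D3 library was the low one, at 0.430 times vehicle (0.220 to 0.798) and 0.474 times the 25(OH)D3 library (0.239 to 0.897). With 20(OH)D3, 10 of 10 T cell markers were below the 25(OH)D3 library and 0 were above it, against 48.2% of all loci above. The interval of Cd3g held 1. The summed T cell markers had a ratio between the compounds of 0.709, and their part in the receptor values was not tested.

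Of the 6 ligand genes of these receptors, 2 passed the count filter. Tnfsf8, the CD30 ligand, lay at 7.44, 8.42 and 9.05 FPKM, with a ratio of 20(OH)D3 to vehicle of 0.822 (0.688 to 0.980). Tnfsf9, whose product engages Tnfrsf9, had 22, 41 and 29 reads, and the ratio between the compounds was 0.560 (0.317 to 0.962). Exons of Gm11110 overlap Tnfsf9 on the opposite strand. The ligands Tnfsf4, Tnfsf15, Tnfsf18 and Cd70 had between 1 and 9 reads in each library and gave no usable ratio. Cd27 and its ligand Cd70 differed widely in level, with 89.1, 147 and 112 FPKM for the receptor and 0.366, 0.353 and 0.163 FPKM for the ligand.

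The death ligand gene Tnfsf10, encoding TRAIL, which is known as an interferon-inducible product of natural killer cells and macrophages, showed the largest ratio between the compounds among the 11 ligand loci past the count filter. It had 601 reads with 20(OH)D3, 305 with 25(OH)D3 and 460 with vehicle, and vehicle lay in between. The ratio was 1.46 (1.29 to 1.65) for 20(OH)D3 over vehicle, 0.711 (0.613 to 0.824) for 25(OH)D3 over vehicle and 2.05 (1.79 to 2.37) for 20(OH)D3 over 25(OH)D3. Fasl, the ligand of cytotoxic lymphocytes, had 29, 19 and 23 reads with a ratio between the compounds of 1.59 and an interval of 0.863 to 3.00 that held 1. Natural killer cell markers were above vehicle with 20(OH)D3 in 6 of 6 genes, against 47.9% of all loci, but the intervals of Ncr1, Klrk1 and Prf1 held 1. Their summed levels were 66.3, 42.7 and 40.7 FPKM. The part of natural killer cells in the Tnfsf10 and Fasl values was not tested.

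Among the receptors of this branch, Tnfrsf10b, the signalling TRAIL receptor of the mouse, had 84, 72 and 114 reads and ratios to vehicle of 0.824 (0.614 to 1.10) for 20(OH)D3 and 0.678 (0.497 to 0.918) for 25(OH)D3. Tnfrsf22, Tnfrsf23 and Tnfrsf26 lie in a row on chromosome 7 and are related in sequence, and the first 2 encode TRAIL decoy receptors in the mouse. Tnfrsf23 had 44, 21 and 36 reads, with a ratio between the compounds of 2.19 (1.27 to 3.87) by counts but 1.44 by FPKM. Tnfrsf26 had 179, 254 and 216 reads with a ratio of 0.735 (0.604 to 0.893), and Tnfrsf22 had 102, 120 and 125 reads with a ratio of 0.886 (0.674 to 1.16) by counts but 1.14 by FPKM. Exons of E230032D23Rik overlap Tnfrsf23 and Tnfrsf26 on the opposite strand, and related copies can exchange reads, so these 3 values are uncertain. Tnfrsf21, or death receptor 6, lay at 7.31, 8.06 and 8.31 FPKM with intervals that held 1 throughout.

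In the RANK system, Tnfsf11 had 132 reads with 20(OH)D3, 80 with 25(OH)D3 and 119 with vehicle. The 25(OH)D3 library was the low one, at 0.721 times vehicle (0.536 to 0.966), whereas 20(OH)D3 over vehicle was 1.24 (0.961 to 1.60) and the ratio between the compounds was 1.72 (1.29 to 2.30). Its receptor Tnfrsf11a, made by dendritic and myeloid cells, was at 7.06, 6.83 and 6.88 FPKM, with ratios to vehicle of 0.888 (0.723 to 1.09) for 20(OH)D3 and 1.16 (0.958 to 1.40) for 25(OH)D3 by counts. Between the compounds its ratio was 0.768 (0.627 to 0.938) by counts but 1.03 by FPKM, and in both comparisons with vehicle the units also gave opposite directions, so no order is given. The soluble decoy osteoprotegerin, Tnfrsf11b, had 5, 1 and 11 reads. Endothelial markers, summed over 8 genes, followed the same order as Tnfsf11, at 180, 154 and 177 FPKM. With 20(OH)D3, 5 of the 8 were above vehicle, against 47.9% of all loci, but the intervals of Flt4 and Pdpn held 1. Pecam1, Kdr and Prox1 were below it. Pecam1, the largest part of the sum, stood at 97.7, 97.6 and 109 FPKM, with a ratio of 0.923 (0.875 to 0.974). With 25(OH)D3, 1 of the 8 was above vehicle, against 51.7% of all loci. The part of these cells in the Tnfsf11 values was not tested. Tnfrsf19, the receptor TROY, had 17, 22 and 27 reads and intervals that held 1.

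**Figure D3:**
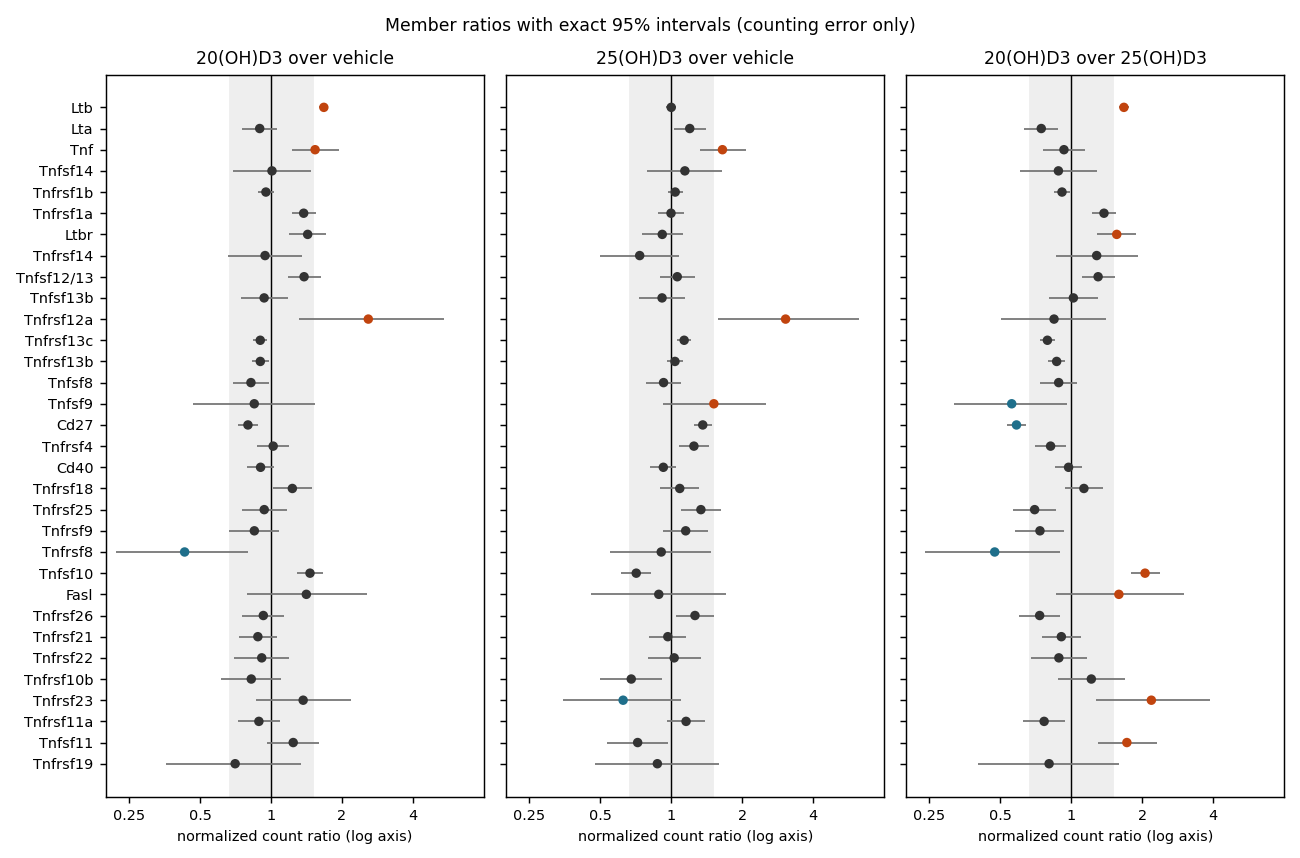
Normalized count ratios (log axis) of the 32 members past the count filter, ordered by role, with exact 95% intervals as lines, in 3 panels for 20(OH)D3 over vehicle, 25(OH)D3 over vehicle and 20(OH)D3 over 25(OH)D3. The shaded band spans less than 1.5-fold, and red and blue points lie beyond it on the high and low side. Most members stay inside the band in every panel.

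Set against all loci, the family did not stand far from the rest of the transcriptome. Loci averaging at least 10 normalized counts over the 3 libraries numbered 14242, and 32 of the 39 members were among them. In the comparison of 20(OH)D3 with vehicle, 3 members were at least 1.5-fold higher (Ltb, Tnf and Tnfrsf12a), which is 9.38% of those measured, against 12.8% of all loci. In the same comparison 1 member, Tnfrsf8, was at least 1.5-fold lower, against 4.96% of all loci. At least 2-fold higher was 1 member (Tnfrsf12a), against 5.48% of all loci, and 1 (Tnfrsf8) was at least 2-fold lower, against 1.59%. Counting intervals lay above 1 for 8 members, or 25.0%, against 20.7% of all loci, and below 1 for 5, or 15.6%, against 21.7%. The median log2 ratio was -0.10 over members and -0.02 over all loci, and 13 of 32 members, against 47.9% of all loci, were above 1. By FPKM with a pseudocount of 1 the members' median became 0.01 with 17 above, so no overall direction is given.

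For 25(OH)D3 over vehicle, 3 members were at least 1.5-fold higher (Tnf, Tnfrsf12a and Tnfsf9), against 5.92% of all loci, and 1 was lower (Tnfrsf23), against 4.75%. The interval of Tnfsf9 was 0.920 to 2.53 and that of Tnfrsf23 was 0.347 to 1.10, so both held 1. At least 2-fold higher was 1 member (Tnfrsf12a), against 1.66% of all loci, and 0 were 2-fold lower, against 1.42%. Counting intervals lay above 1 for 8 members, or 25.0%, against 14.7% of all loci, and below 1 for 3 (Tnfsf10, Tnfsf11 and Tnfrsf10b), against 12.4%. The median log2 ratio was 0.05 over members and 0.01 over all loci, and 18 of 32 members, against 51.7% of all loci, were above 1. The shares past 1.5-fold lay near the background in both comparisons with vehicle, which share the vehicle library.

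Between the compounds at equal dose, 6 members were at least 1.5-fold higher with 20(OH)D3 (Tnfsf10, Ltb, Ltbr, Tnfsf11, Tnfrsf23 and Fasl), or 18.8% of those measured, against 11.4% of all loci. Another 3 (Cd27, Tnfrsf8 and Tnfsf9) were at least 1.5-fold lower, or 9.38%, against 5.41% of all loci. Of these 9 genes, the intervals of 8 left out 1. At least 2-fold higher were 2 members (Tnfsf10 and Tnfrsf23), against 4.35% of all loci, and 1 (Tnfrsf8) was at least 2-fold lower, against 1.52%. Intervals lay above 1 for 7 members, against 19.2% of all loci. Intervals lay below 1 for 12 members, or 37.5%, against 20.9% of all loci. These 12 were Cd27, Tnfrsf13c, Tnfrsf13b, Tnfrsf1b, Tnfrsf4, Tnfrsf9, Tnfrsf25, Tnfrsf8, Tnfrsf26, Tnfrsf11a, Lta and Tnfsf9, of which Tnfrsf11a was not below 1 by FPKM. Intervals are narrower at higher counts, and the median read number was 181.5 with 20(OH)D3 and 225.5 with 25(OH)D3 over members, and 210 with 20(OH)D3 and 213 with 25(OH)D3 over all loci. The median log2 ratio was -0.16 over members and -0.02 over all loci, and 12 of 32 members, against 48.2% of all loci, were above 1. The 25(OH)D3 library held the highest value for 15 of the 32 members, or 46.9%, against 31.5% of all loci, and the 20(OH)D3 library held the lowest for 16 of them, against 40.3% of all loci.

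**Figure D4:**
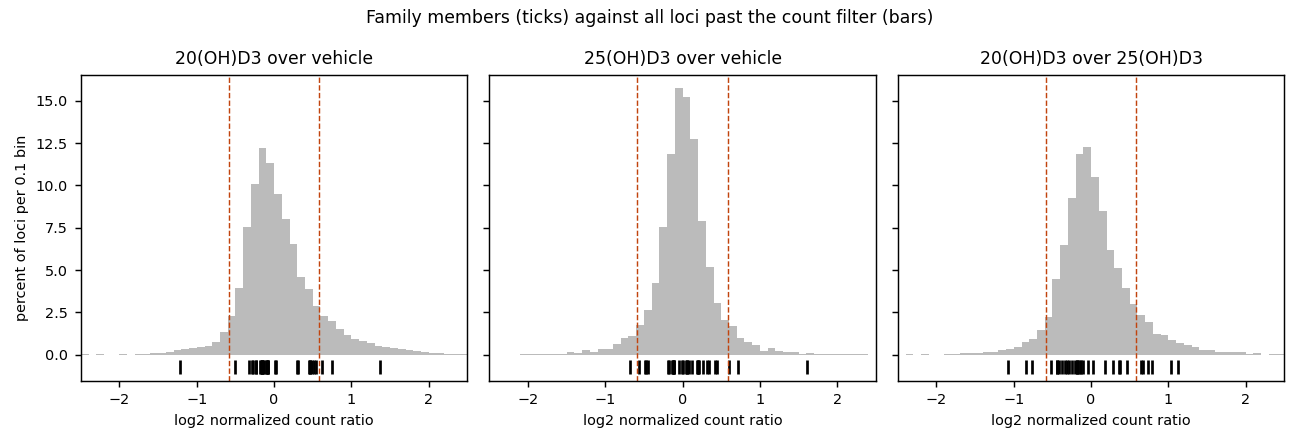
Distribution of log2 normalized count ratios over 14242 loci (bars, percent of loci per bin) with the 32 family members as ticks below, in 3 panels for the same comparisons. Dashed lines mark 1.5-fold. Most ticks lie between the dashed lines in every panel.

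Members of the superfamily that the symbol rule leaves out were read alongside. Cd40lg, the T cell ligand of Cd40, had 54 reads with 20(OH)D3, 89 with 25(OH)D3 and 97 with vehicle, and the 20(OH)D3 library was 0.623 times vehicle (0.438 to 0.878). Fas, the receptor of Fasl, had 169, 204 and 188 reads with ratios to vehicle of 1.01 (0.812 to 1.24) for 20(OH)D3 and 1.16 (0.95 to 1.43) for 25(OH)D3. Of the 7 genes in this list 5 passed the filter, and 1 of these was at least 1.5-fold lower in each comparison. For 20(OH)D3 it was Cd40lg, against 4.96% of all loci over vehicle and 5.41% between the compounds. For 25(OH)D3 over vehicle it was Eda2r, with 16 and 28 reads, against 4.75% of all loci. The interval of Eda2r was 0.310 to 1.17 and held 1.

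Most downstream genes, like most of all loci, lay within 1.5-fold of vehicle. Of 13 receptor adaptors, 3 were above and 10 below vehicle with 20(OH)D3 (median log2 ratio -0.24), against 47.9% of all loci above, and 6 were above and 7 below with 25(OH)D3 (-0.01), against 51.7% of all loci above. The summed adaptors had a ratio of 20(OH)D3 to vehicle of 0.850, beside 0.746 for the T cell and 0.904 for the B cell markers, and the part of these cells in the adaptor, ubiquitin and NF-kB lists was not tested. Cradd, a death-domain adaptor, was the only adaptor at least 1.5-fold apart from vehicle, at 0.597 with 20(OH)D3 (0.423 to 0.837). That is 1 of 13, against 4.96% of all loci at least 1.5-fold lower. Traf1, an adaptor induced by NF-kB, had 1105, 1713 and 1478 reads and a ratio between the compounds of 0.673 (0.623 to 0.726). In the cell death list of 8 genes, Mlkl, the executor of necroptosis, was the only member at least 1.5-fold apart. It had 88, 46 and 46 reads, a ratio of 2.14 (1.48 to 3.13) for 20(OH)D3 over vehicle. That is 1 of 8, against 12.8% of all loci at least 1.5-fold higher.

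The 14 genes of the linear ubiquitin and TAK1 complexes had 3 above and 11 below vehicle with 20(OH)D3, against 47.9% of all loci above. They ran from Ikbkb at 0.727 (0.684 to 0.773) to Otulin at 1.12 (0.986 to 1.27). In this list 0 were 1.5-fold apart, against 12.8% of all loci higher and 4.96% lower. The noncanonical NF-kB branch, which the lymphotoxin beta and BAFF receptors use, had 1 of 8 genes above vehicle with 20(OH)D3, against 47.9% of all loci. Of these 8, Traf2, Traf3, Birc2, Birc3 and Chuk are also counted in the adaptor, cell death or ubiquitin lists. Nfkb2 and Relb stood at 0.909 (0.846 to 0.976) and 0.914 (0.845 to 0.987). Shedding proteases stayed close to vehicle, with Adam17, the TNF-converting enzyme, at 0.885 (0.797 to 0.983) for 20(OH)D3 and 1.01 (0.914 to 1.12) for 25(OH)D3.

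Of 8 measured stromal and endothelial products known to depend on lymphotoxin signalling, 1 was above and 7 were below vehicle with 20(OH)D3 (median log2 ratio -0.24), against 47.9% of all loci above. Stromal cell markers were above vehicle in 6 of 9 genes of that library, but their summed ratio was 0.965. Those below were Cxcl13, itself among the 8 products, and Fcer2a and Cr2, which are also B cell markers. The summed adipocyte markers had a ratio of 4.15. The part of stromal cells and adipocytes in the product values, and any relation to the Ltb and Ltbr values, was not tested. Cxcl12 was the gene above, at 1.29 (1.23 to 1.35). Cxcl13, the follicle chemokine, had 2193, 2966 and 2853 reads and a ratio of 20(OH)D3 to vehicle of 0.860 (0.813 to 0.910). Ccl19 rested on 11, 17 and 25 reads. Glycam1, a ligand of high endothelial venules, had 1672, 1702 and 2124 reads and ratios to vehicle of 0.881 (0.826 to 0.939) for 20(OH)D3 and 0.860 (0.806 to 0.917) for 25(OH)D3. Ccl21a was listed at 0, 1 and 2 reads, and since it has near-identical copies in the mouse genome its value is not read as a level.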

How the data were processed

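The deposited table gives 46951 loci of 3 libraries, with 1 library per group taken from the agent named in the labels. The submitters' processing notes name STAR 2.7.0c, Cufflinks 2.2.1, Cuffdiff and Cuffnorm with the build GRCm38. What each tool did, the annotation release and any use of strand were not stated in the sources used here. Per the file headers, the authors deposited FPKM values and a count signal for each library. Per the labels, that signal is normalized counts. The deposited signal was whole reads times 1.05, 1.01 and 0.938 in the 20(OH)D3, 25(OH)D3 and vehicle libraries, within 0.02 of a whole number for 99.9% of nonzero values. The factor near 1 makes the recovery less certain for 25(OH)D3. No per-sample column was left unused, and 2 lines of the table were empty.

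Ratios of normalized counts were computed with scipy 1.17.1 for loci averaging at least 10 normalized counts. A library at 0 was set to a floor of 3 reads, and 1.5-fold was the fold counted. No count model was fitted, since 1 library per group leaves no spread. The procedure was tested on simulated reads that varied by counting error only, which is what the interval assumes. That test checks the calculation and cannot speak to spread between libraries. The reads carry no molecular identifiers and are not independent molecules, so intervals and floors cover counting error only. Named with full values are members averaging at least 20 counts, 1.5-fold apart in a comparison with an interval that leaves out 1, and the 4 ligands and 6 receptors of highest FPKM. Every other member may be named by its role, and from the other lists the extremes and genes 1.5-fold apart. Further genes of those lists (Fas, Nfkb2, Relb, Adam17, Cxcl13, Glycam1, Ccl21a and Traf1) were chosen after their values were seen. Members and lists were chosen with earlier results of these data known. File starts count from 0, and gene coordinates are those of GENCODE M21, which gave the same start and end for 57.2% of 43890 single-symbol loci. Alternatives were FPKM with pseudocounts of 1, 0.1 and 5, other count minimums, rescaling, loci of several symbols left out, and a 2-fold threshold.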

Additional observations from a re-analysis of the deposited data

How the results depend on the processing

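No paired analysis was possible because each group had 1 library, and leaving out a library was not possible for the same reason. The median log2 ratio over members ranged from -0.11 to 0.01 for 20(OH)D3 over vehicle, from 0.02 to 0.06 for 25(OH)D3 over vehicle and from -0.16 to -0.06 between the compounds, so the first changed sign with the unit. Counts of members past 1.5-fold are small and moved with the setting. For 20(OH)D3 over vehicle, 3 higher became 1 with FPKM and a pseudocount of 5, 8 without a count minimum and 1 at 2-fold, and 1 lower became 0 with FPKM and a pseudocount of 1 or 5, 2 with a pseudocount of 0.1, 3 without a minimum and 0 with a minimum of 50. For 25(OH)D3 over vehicle, 3 higher became 1 with a pseudocount of 5, 6 without a minimum, 1 with a minimum of 50 and 1 at 2-fold, and 1 lower became 0 with FPKM at any of the 3 pseudocounts, 4 without a minimum, 0 with a minimum of 50, 2 after rescaling to totals without immunoglobulin, T cell receptor, mitochondrial, small RNA and adipocyte loci, and 0 at 2-fold. Between the compounds, 6 higher became 2 with a pseudocount of 5 and 2 at 2-fold, and 3 lower became 1 with a pseudocount of 5, 1 with a minimum of 50 and 1 at 2-fold. Pseudocounts shrink the ratios of low genes by construction. Under the same alternatives Ltb kept a ratio of 1.66 to 1.69 for 20(OH)D3 over vehicle, and Tnf one of 1.33 to 1.56 for 20(OH)D3 and 1.40 to 1.65 for 25(OH)D3. Tnfrsf12a for 20(OH)D3 over vehicle ranged from 1.42 to 2.61. Tnfrsf8 for the same comparison ranged from 0.426 to 0.883. No ratio past 1.5-fold of a gene named with full values changed direction under these alternatives. Depth limits the 7 members under the count minimum, which had at most 11 reads in a library.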
